A study of Mus musculus with 10 samples.

Results

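The genes described here are 10 genes that earlier work has tied to *Hoxa13* in the developing limb or genital tubercle: *Bmp2*, *Bmp7*, *Gdf5*, *Enpp2*, *Epha3*, *Epha4*, *Epha7*, *Aldh1a2*, *Hand2* and *Sall1*. They were taken as every probe of the array whose transcript accession belongs to one of these genes. This gave 13 of the 55681 probes for 10 of the 20972 genes with a symbol, with 3 probes for *Epha7*, 2 for *Gdf5* and 1 for each other gene. The question was whether they followed the rise of *Hoxa13* in mouse embryonic stem (ES) cells in which *Hottip* was activated.

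All cells were E14 ES cells of 129/Ola background, grown on gelatin in medium with Lif, which holds ES cells in the undifferentiated state. In the first group (4 arrays), they were transfected with 5 pooled plasmids for guide RNAs (gRNAs) that target the promoter of *Hottip*, a long non-coding RNA gene next to *Hoxa13*, together with dCas9-VP160, a nuclease-dead Cas9 fused to an activation domain. In the second group (3 arrays) the pool of 5 gRNAs was against the *Hoxa13* promoter. The control group (3 arrays) is described by its sample labels as control gRNA, and by the protocol as non-targeting gRNAs and dCas9 alone. The study describes it as dCas9 recruited without VP160, so the presence of VP160 and that of a targeting guide cannot be told apart in a comparison with the control. Puromycin was added 24 hrs after transfection at 2 μg/ml and RNA was taken 48 hrs after transfection, so every value is from a mixed, transiently transfected culture. The labels name each array a biological replicate. A change in the share of responding cells and a change in the RNA per cell cannot be told apart here.

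HOXA13 is a homeodomain transcription factor of the distal limb bud and genital tubercle, where it is needed for digit and genital outgrowth. The genes tied to it there act in a few shared processes: BMP ligands in interdigital cell death and digit identity, Eph receptors in cell sorting and condensation, retinoic acid synthesis, and joint and digit patterning. ES cells are not limb cells.

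The guides of the *Hottip* pool are printed here because the question turns on this pool. Each guide was found in the RefSeq window of 250 bases before to 50 bases after the *Hottip* start (GRCm38.p6, chromosome 6), with the adjacent PAM, the short motif that Cas9 requires, in capitals after the guide.
Hottip sg1: gcagtaagaaggtaaactcgGGG
Hottip sg2: tctcctgactttagcggtccTGG
Hottip sg3: tacccaggaccgctaaagtcAGG
Hottip sg4: ggatcagggaaggttttattGGG
Hottip sg5: gggatcagggaaggttttatTGG

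The *Hottip* guides lie within chr6:52262544-52262665, between 110 and 231 bases upstream of the *Hottip* start, and all but sg2 are on the minus strand. Guides sg2 and sg3 overlap on opposite strands and sg4 and sg5 on the same strand, so they share sequence. Between 40.0% and 55.0% of their bases are G or C.

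RNA was hybridised to one-colour Agilent arrays of 62976 spots. Levels are given as the log2 of the processed spot signal relative to the 75th percentile of its array. That percentile was an intensity of 948 to 2572 in the *Hottip* gRNA group, 586 to 1086 in the *Hoxa13* gRNA group and 1096 to 2380 in the control. Between 32.9% and 42.5% of spots were well above background on an array, as Feature Extraction (the scanner software) judged them. On each array 39.8% to 51.3% of spots did not exceed their local background. In those spots the deposited processed signal was not a measurement but a value set by the software: on *Hottip* gRNA arrays 3 and 4 every such spot carried 1 and the same value, at −4.54 and −5.01. The median of such floor values was −3.86 to −5.01 on the *Hottip* gRNA arrays, −4.56 to −4.96 on the *Hoxa13* gRNA arrays and −4.10 to −5.78 on the control arrays. Single floor values lay higher. Their 95th percentile on an array reached −2.58, −3.15 and −2.32 in these groups. Floor values have no order, and differences between them are differences between floors. Spots at such levels that exceeded their local background hold a measured but dim signal. The *Hottip* gRNA and control arrays shared 1 slide, and *Hoxa13* gRNA arrays 1 and 2 were on another. *Hottip* gRNA arrays 3 and 4 were not corrected for a trend across the array, and the spike-in slope was 1.16 on *Hoxa13* gRNA array 1 against 0.900 to 0.982 on the others.

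*Hoxa13* itself was read by 2 probes. On the brighter one (A_55_P1970075) the *Hottip* gRNA arrays were at 3.60, 4.16, 3.88 and 3.17, the *Hoxa13* gRNA arrays at −3.68, −4.80 and −4.31 and the control arrays at −5.84, −5.00 and −3.46. All 4 *Hottip* gRNA arrays were far above the other 6, which were in the floor range: none of the 6 was well above background, and 4 of the 6 did not exceed the local background. The difference from the control was 8.47 (standard error, SE, 0.55, 95% interval 7.26 to 9.68, limma adjusted p = 0.000112), an at least 144-fold higher signal. That from the *Hoxa13* gRNA group was 7.96 (SE 0.55, limma adjusted p = 0.000105), at least 120-fold. The second probe (A_51_P303316) gave 8.17 and 7.89. Both probes were well above background on the *Hottip* gRNA arrays alone. They thus passed the filter on dim probes, given below, only through the group where they were high. Between *Hoxa13* gRNAs and control the difference on the brighter probe was 0.50 (limma adjusted p = 0.725), but this was read largely from floor values. Of the spots, 2 of the 3 *Hoxa13* gRNA ones exceeded their local background, and 0 of the 3 control ones did.

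In the log2 values of the authors' own table, which hold no such floor, the brighter *Hoxa13* probe was at 13.68 to 14.03 after *Hottip* gRNAs, 6.39 to 7.16 after *Hoxa13* gRNAs and 5.41 to 5.88 in the control. The 3 groups did not overlap. How many probes separate on this scale was not counted, for *Hoxa13* or for the genes below. On this scale *Hoxa13* was higher after *Hoxa13* gRNAs than in the control by 1.20 on this probe and by 0.61 on the second, also without overlap (p = 0.1 on either probe by a two-sided exact permutation test, below which 3 arrays against 3 cannot go). After *Hottip* gRNAs it was higher than after *Hoxa13* gRNAs by 7.02 and 6.81. *Hoxa13* was thus highest after *Hottip* gRNAs in both sets of values, while the difference between the other 2 groups rests on spots of which none was well above background.

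None of the 10 genes followed that rise to the point of being called. Of the 10, 6 (*Bmp7*, *Enpp2*, *Epha4*, *Epha7*, *Aldh1a2* and *Sall1*, with 7 probes) passed the filter on dim probes (well above background on no fewer than 3 arrays) and could be tested with adjustment over all such probes. Of these, 0 were called against the control and 0 against the *Hoxa13* gRNA group at an adjusted p under 0.05 from limma, where 0.718% and 0.381% of all tested probes were called. At an unadjusted p under 0.05, 2 of the 6 (*Epha4* and *Enpp2*, both higher) passed against the control, where 8.05% of all tested probes did, and 0 of the 6 passed against the *Hoxa13* gRNA group, where 11.9% did. Between the *Hoxa13* gRNA group and the control 0 of the 6 were called by limma (0.175% of all tested probes), and 1, *Epha4*, had an unadjusted p under 0.05 (11% of all tested probes). The median difference of the 6 genes was 0.09 against the control and −0.15 against the *Hoxa13* gRNA group, beside −0.03 and −0.26 over all tested probes. The upper 95% limit of their log2 differences from the control ran from 0.76 (*Aldh1a2*) to 2.35 (*Epha4*). On the linear scale, not in log2, the *Hoxa13* signal was at least 81.3-fold higher on the probe with the smaller bound. Of the other 4 genes, *Epha3* and *Hand2* did not exceed the local background on any array, *Bmp2* exceeded it but was well above background on none, and *Gdf5* was well above background on 1.

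**Figure D1:**
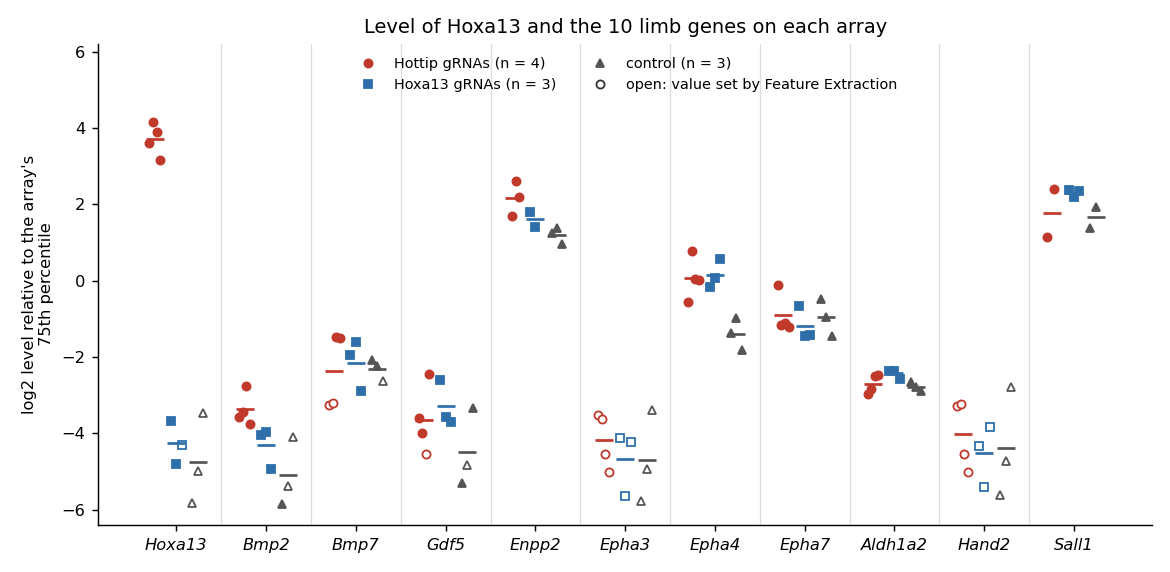
Level of each gene's brightest probe (log2 relative to the 75th percentile of the array, y axis) on every array, by gene (x axis), for *Hottip* gRNAs (circles), *Hoxa13* gRNAs (squares) and control (triangles), with the group mean as a line (*Enpp2* and *Sall1* lack 2 and 3 arrays). Open symbols are spots that did not exceed the local background and hold a value set by the software, and levels of different genes come from different probes and are not to be compared; only *Hoxa13* separates the *Hottip* gRNA arrays from the others by several log2 units.

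The secreted signals were taken first. *Bmp2* encodes a BMP ligand of the limb ectoderm and interdigital tissue. Its probe (A_55_P2041961) was at −3.57, −3.43, −2.75 and −3.75 on the *Hottip* gRNA arrays, at −4.05, −3.97 and −4.93 on the *Hoxa13* gRNA arrays and at −5.84, −5.38 and −4.09 on the control arrays. All 4 *Hottip* gRNA arrays were above all 6 others, although control arrays 2 and 3 held floor values and no array was well above background.

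*Bmp2* exceeded the local background on 4 of 4 *Hottip* gRNA, 3 of 3 *Hoxa13* gRNA and 1 of 3 control arrays. Its formal difference was 1.73 from the control (SE 0.48) and 0.94 from the *Hoxa13* gRNA group (SE 0.48), the first of which cannot be taken as a measured size since 2 control spots hold values set by the software. Because of its low signal *Bmp2* was outside the adjusted test, and no fold is given. With no filter on dim probes its adjusted p against the control was 0.453 from limma.

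The level of dim probes in general differed between the groups. Over the 22912 probes that were well above background on no array, the median difference from the control was 0.46 after *Hottip* gRNAs. Among them, 0.183% had all 4 *Hottip* gRNA arrays above the 6 others, as *Bmp2* had. A probe at the floor on all arrays can hardly show this, and among tested probes the share was 2.43%. In the authors' log2 values *Bmp2* was at 7.63 to 8.06 after *Hottip* gRNAs, 6.36 to 7.39 after *Hoxa13* gRNAs and 6.31 to 6.66 in the control, again without overlap between the first group and the others, and with differences of 1.27 from the control and 0.84 from the *Hoxa13* gRNA group (p = 0.0286 for both by a two-sided exact permutation test, below which 4 arrays against 3 cannot go). Under normexp, another background correction, the differences were 0.96 from the control and 0.32 from the *Hoxa13* gRNA group, and with the slide as a block the latter was 1.56.

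*Bmp7*, a second BMP ligand, showed no such separation. Its probe (A_52_P278354) was at −3.25, −3.20, −1.48 and −1.50 on the *Hottip* gRNA arrays, at −1.95, −1.60 and −2.90 on the *Hoxa13* gRNA arrays and at −2.07, −2.22 and −2.62 on the control arrays. *Hottip* gRNA arrays 3 and 4 were the highest of the 10, and arrays 1 and 2 held floor values, so that their rank is not a measurement. The difference from the control was −0.05 (95% interval −1.26 to 1.16, limma adjusted p = 0.999). Control array 3 was at the floor as well. The 2 arrays that were not corrected for a trend are the high ones, and without them only the floor values of *Hottip* gRNA arrays 1 and 2 remain. In the authors' values *Bmp7* was at 6.58 to 8.94 after *Hottip* gRNAs, 7.26 to 9.08 after *Hoxa13* gRNAs and 6.19 to 8.91 in the control, with overlap between all groups.

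*Gdf5* encodes a BMP-family ligand of the forming joints. On the probe with the higher mean (A_55_P2131831), *Hottip* gRNA array 4 was at −2.45 and was the only array of the 10 well above background, while the other 3 *Hottip* gRNA arrays lay between −3.61 and −4.54 and the control arrays between −3.34 and −5.29. *Hottip* gRNA array 3 and control array 2 held floor values there, and on the other probe (A_66_P127070) 3 of the 4 *Hottip* gRNA arrays did, so no size is read from these levels. In the authors' values the first probe differed by 0.49 from the control and by −0.10 from the *Hoxa13* gRNA group, with overlapping arrays in both. The second differed by −0.19 and −0.85, and against the *Hoxa13* gRNA group it was lower on all 4 *Hottip* gRNA arrays (6.76 to 7.16) than on the other 3 (7.25 to 8.41). The 2 probes thus disagreed in sign against the control. *Gdf5* was outside the adjusted test.

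*Enpp2* encodes autotaxin, the secreted enzyme that makes lysophosphatidic acid. It was bright in ES cells and well above background on all 10 arrays. Its probe (A_55_P2055597) was at 1.70, 2.60 and 2.19 on *Hottip* gRNA arrays 2, 3 and 4, at 1.81 and 1.39 on *Hoxa13* gRNA arrays 1 and 2, and at 1.24, 1.39 and 0.96 on the control arrays. The spots on *Hottip* gRNA array 1 and *Hoxa13* gRNA array 3 were marked as outliers and left out of the fit. The 3 *Hottip* gRNA arrays lay above the 3 control arrays and overlapped with the *Hoxa13* gRNA arrays. Of all tested probes 5.95% lay above the control in this way. That share includes probes with 4 *Hottip* gRNA arrays, for which 1 of 35 splits separates so, against 1 of 20 for 3 arrays against 3.

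The *Enpp2* difference from the control was 0.96 (SE 0.40, 95% interval 0.06 to 1.87), a 1.95-fold higher signal, with an unadjusted p of 0.0398 but an adjusted p of 0.572 from limma. An exact permutation test of 3 arrays against 3 gave p = 0.1, the smallest it allows. The difference from the *Hoxa13* gRNA group was 0.56 (SE 0.45, limma adjusted p = 0.584). Kept in, the 2 outlier spots were at 2.24 on *Hottip* gRNA array 1 and at 0.81 on *Hoxa13* gRNA array 3, and the differences became 0.98 and 0.84. In the authors' values *Enpp2* was at 12.69 to 12.91 after *Hottip* gRNAs, 11.54 to 12.24 after *Hoxa13* gRNAs and 11.68 to 12.50 in the control, so that on this scale the *Hottip* gRNA arrays did not overlap with either group. Without the arrays that were not corrected for a trend the difference from the control rested on 1 *Hottip* gRNA array and was 0.50. The 2 *Hoxa13* gRNA arrays in the fit were also above the control, by a mean of 0.40 (limma adjusted p = 0.712), as for 16.7% of all tested probes. The outlier spot at 0.81 was below the control, and in the authors' values the 2 groups overlapped (−0.16).

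The Eph receptors are tyrosine kinases that sort cells through contact with membrane-bound ephrins. *Epha4*, which marks limb mesenchyme and its condensations, had higher signals after both guide pools than in the control on every array, without being called. Its probe (A_55_P2023762) was at −0.55, 0.77, 0.05 and 0.01 on the *Hottip* gRNA arrays, at −0.17, 0.08 and 0.56 on the *Hoxa13* gRNA arrays and at −1.38, −0.98 and −1.81 on the control arrays. All 7 arrays with a targeting pool were above the 3 control arrays, and the 2 pools overlapped throughout.

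The difference of *Epha4* from the control was 1.46 after *Hottip* gRNAs (SE 0.40, 95% interval 0.57 to 2.35, limma adjusted p = 0.213), a 2.76-fold higher signal, and 1.55 after *Hoxa13* gRNAs (SE 0.43, limma adjusted p = 0.371), 2.93-fold. The 2 comparisons share the control arrays. The 2 pools differed by −0.09 (95% interval −0.98 to 0.80), whereas *Hoxa13* differed between them at least 120-fold, so the 2 genes did not have the same pattern over the groups. Groups without overlap were not rare: 5.95% of all tested probes had every *Hottip* gRNA array above every control array, and 16.7% had every *Hoxa13* gRNA array above every control array. In the authors' values *Epha4* was at 9.26 to 10.72 after *Hottip* gRNAs, 9.50 to 10.68 after *Hoxa13* gRNAs and 8.65 to 9.18 in the control, in the same arrangement.

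**Figure D2:**
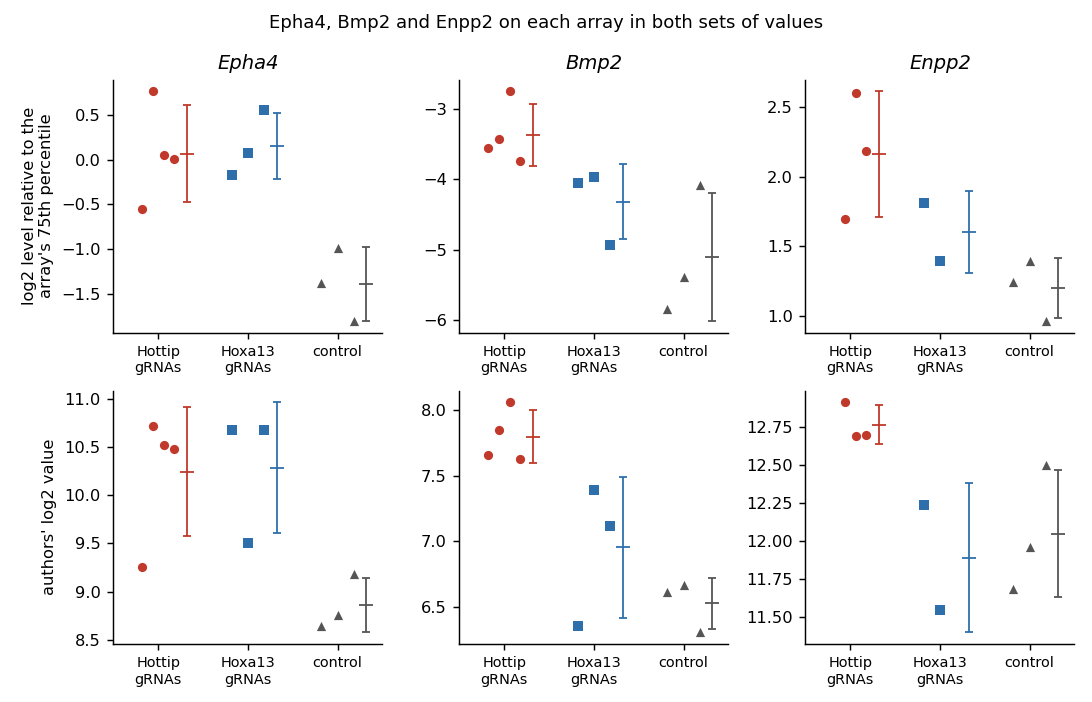
*Epha4*, *Bmp2* and *Enpp2* on each array, as the level relative to the 75th percentile of the array (top, log2) and as the authors' log2 value (bottom), with the mean and SD of each group beside its points (*Hottip* gRNAs n = 4, *Hoxa13* gRNAs n = 3, control n = 3; for *Enpp2* n = 3, 2 and 3). *Epha4* separates the control from both guide pools, and *Bmp2* separates the *Hottip* gRNA arrays from the 6 others in both rows.

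*Epha7*, a receptor gene that HOXA13 and HOXD13 are known to regulate in limb, gave overlapping values in all groups. Its brightest probe (A_52_P504787), well above background on all 10 arrays, was at −0.12, −1.15, −1.10 and −1.20 on the *Hottip* gRNA arrays, at −0.66, −1.46 and −1.42 on the *Hoxa13* gRNA arrays and at −0.48, −0.96 and −1.45 on the control arrays. *Hottip* gRNA array 1 was the highest of the 10, and the other 9 were mixed. The difference was 0.07 from the control (95% interval −0.85 to 0.99, limma adjusted p = 0.999) and 0.29 from the *Hoxa13* gRNA group (95% interval −0.63 to 1.21). A second probe (A_55_P1969058) gave 0.33 and 0.43. The third *Epha7* probe (A_52_P306236) and the only *Epha3* probe (A_52_P276955) did not exceed the local background on any of the 10 arrays. *Epha3*, a related receptor, held values set by the software throughout, from −3.40 to −5.79, and no difference can be read for it.

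Of the intracellular genes, *Aldh1a2* encodes the enzyme that makes retinoic acid in the embryo. Its probe (A_52_P58145) exceeded the local background on all 10 arrays and was at −2.97, −2.84, −2.50 and −2.48 on the *Hottip* gRNA arrays, at −2.36, −2.37 and −2.57 on the *Hoxa13* gRNA arrays and at −2.65, −2.79 and −2.90 on the control arrays. It spanned the narrowest range of the 10 genes over the arrays, and the *Hottip* gRNA arrays enclosed those of the control. The difference was 0.08 from the control (95% interval −0.60 to 0.76, limma adjusted p = 0.999) and −0.26 from the *Hoxa13* gRNA group (limma adjusted p = 0.701). The 3 *Hoxa13* gRNA arrays were above the 3 control arrays by a mean of 0.35 (limma adjusted p = 0.662), as for 16.7% of all tested probes, but not in the authors' values, where the difference was −0.10.

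*Sall1* encodes a zinc-finger transcription factor that is also part of the ES cell network, and it was well above background on all 10 arrays. Its probe (A_55_P1977850) was at 1.15 and 2.39 on *Hottip* gRNA arrays 1 and 3, at 2.37, 2.20 and 2.35 on the *Hoxa13* gRNA arrays and at 1.39 and 1.93 on control arrays 1 and 2, the other 3 spots being outliers. The 2 remaining *Hottip* gRNA arrays lay on either side of the control arrays, and the difference of 0.10 (95% interval −1.19 to 1.40, limma adjusted p = 0.999) was far smaller than the SD of the *Hottip* gRNA arrays (0.877). With the outlier spots kept it was 0.44. It was larger under normexp (1.03) and in the authors' values (1.08), where *Hottip* gRNA arrays 1 and 3 (11.12 and 12.51) were above control arrays 1 and 2 (10.50 and 10.96), and it was not called in either. Against the *Hoxa13* gRNA group the difference was −0.54 (limma adjusted p = 0.642). The 3 *Hoxa13* gRNA arrays were above control arrays 1 and 2 by a mean of 0.64 (limma adjusted p = 0.609), as for 16.7% of all tested probes. In the authors' values they were above by 1.61, also without overlap.

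*Hand2*, a basic helix-loop-helix factor of the posterior limb bud, did not exceed the local background on any array (A_55_P2016237). Its values ran from −2.80 to −5.62, and on *Hottip* gRNA arrays 3 and 4 they were the shared floor values of −4.54 and −5.01. A level of *Hand2* below the background of these arrays was not detectable.

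**Figure D3:**
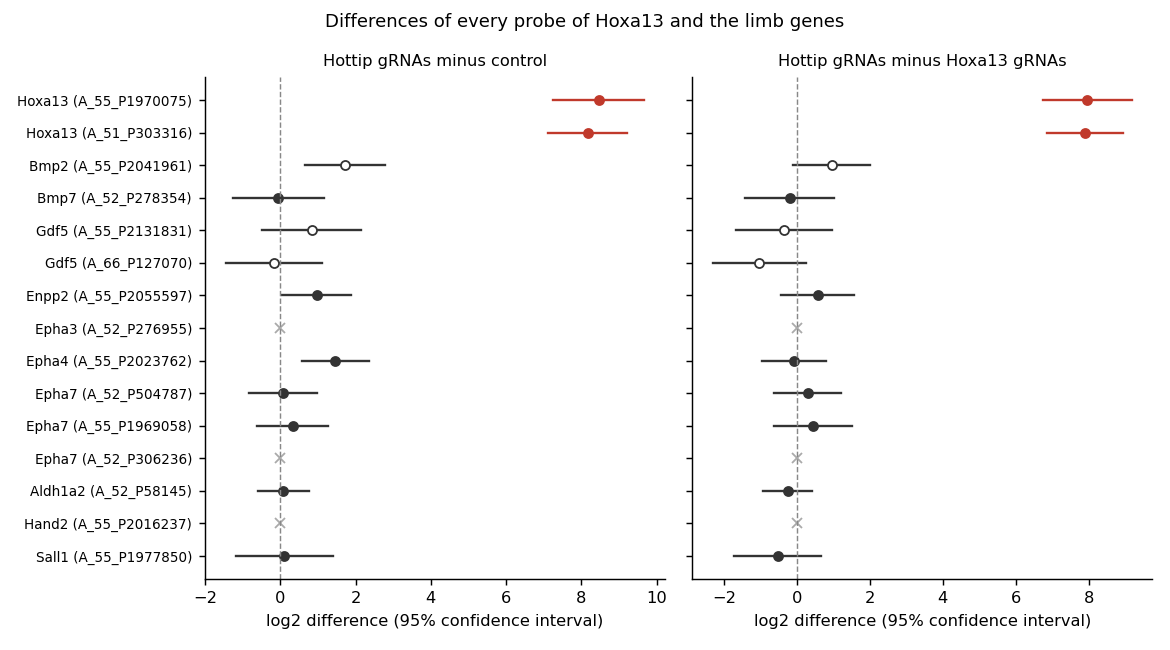
log2 difference with its 95% confidence interval (x axis) of each probe of *Hoxa13* and the 10 genes (y axis), for *Hottip* gRNAs minus control (left) and *Hottip* gRNAs minus *Hoxa13* gRNAs (right). Red marks probes called at an adjusted p under 0.05 from limma, filled points probes in the adjusted test, open points probes outside it and crosses, drawn at 0 without a value, probes at the floor on all 10 arrays; only the 2 *Hoxa13* probes are red.

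With 23 other settings, among them each array left out in turn, none of the genes was called in any of the 3 comparisons. Between 3 and 6 of them were in the test, and all 10 with no filter on dim probes. *Enpp2* and *Epha4* remained higher than the control in all 23, with differences of 0.50 to 1.20 and 1.23 to 1.67. *Bmp2* and *Gdf5* (by its brighter probe or the mean of both) did so too, in formal values that include the floor. *Bmp7*, *Epha7*, *Aldh1a2* and *Sall1* had both signs, and *Epha3* and *Hand2*, at the floor throughout, have no sign that can be read.

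**Figure D4:**
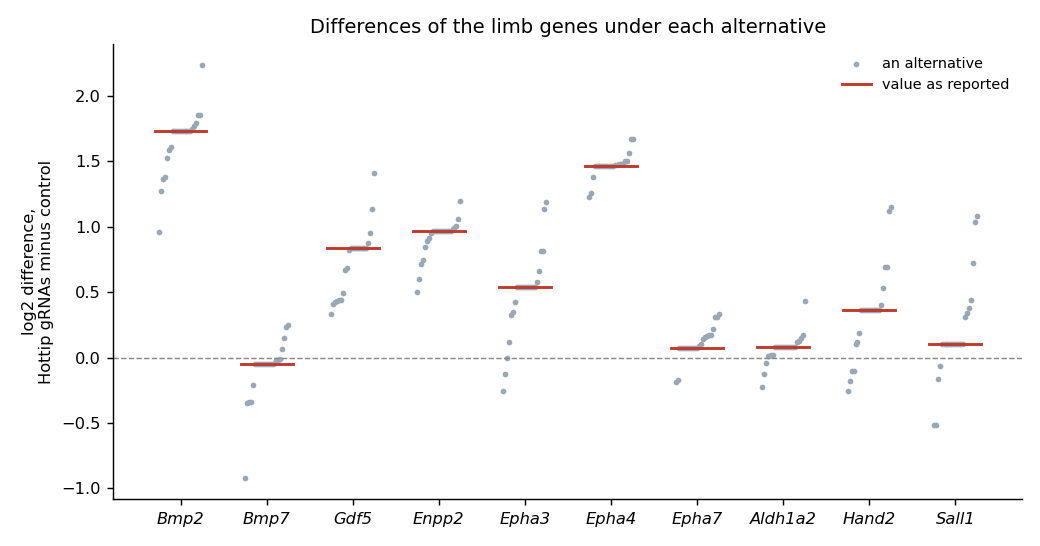
log2 difference, *Hottip* gRNAs minus control (y axis), of each gene (x axis), as reported (red line) and under each of the 23 other settings (grey points). *Epha3* and *Hand2* are floor values on all arrays; only *Bmp2*, *Gdf5*, *Enpp2* and *Epha4* keep all points above 0.

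Other genes of the same pathways were read from 7 lists, none of which holds a member. In the limb bud patterning and outgrowth list, 14 of 27 genes could be tested and 1, *Fgf8*, was called against the control (0.718% of all tested probes were). *Fgf8*, the ligand of the apical ectodermal ridge, was at −2.85, −2.81, −3.67 and −4.05 on the *Hottip* gRNA arrays, at −1.67, −3.03 and −2.43 on the *Hoxa13* gRNA arrays and at −1.03, −1.03 and −0.77 on the control arrays. All *Hottip* gRNA arrays were below all control arrays, as for 7.77% of all tested probes, and it was well above background on 0 of 4 and 3 of 3. It was so on 2 of 3 *Hoxa13* gRNA arrays, so it passed the filter only with the control arrays, where it was high. The difference was −2.40 (SE 0.44, limma adjusted p = 0.0355), an at least 2.81-fold lower signal. This call held in 7 of the 23 other settings, with the difference between −1.80 and −2.58 in all of them and the adjusted p between 0.0134 and 0.286. *Fgf8* was lower after *Hoxa13* gRNAs by 1.43 too, without being called (limma adjusted p = 0.435). *Dlx6*, a homeobox gene, was named for the largest difference of this list, but passed the filter through *Hottip* gRNA arrays alone. It did so only with outlier spots counted, whose values were left out of the fit. It was read from 2 of these at −1.66 and 0.42, the first not well above background, and was well above background on no control array. Its difference of 2.58 was not called (limma adjusted p = 0.483) and became 1.54 without *Hottip* gRNA array 3.

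Of the 14 tested genes, 4 had an unadjusted p under 0.05 (8.05% of all tested probes did). Among them were *Dlx6* and *Fgf8*, whose places in the test rest on the group where each is high. Besides *Fgf8* the others were the homeobox genes *Msx1* and *Msx2*, which are named here after their values were seen. *Msx1* differed by 1.63 (SE 0.36, limma adjusted p = 0.0854) and *Msx2* by 1.45 (SE 0.40, limma adjusted p = 0.232). For both, all 4 *Hottip* gRNA arrays were well above background and above the 3 control arrays (5.95% of all tested probes), of which 1 was well above background. From the *Hoxa13* gRNA group *Msx1* differed by 0.44 (limma adjusted p = 0.584) and *Msx2* by 1.25 (limma adjusted p = 0.336).

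In the lysophosphatidic acid list, which holds the receptors and enzymes around *Enpp2*, 6 of 9 genes could be tested. Of these, 1 was called against the control (0.718% of all tested probes were). *Lpar6*, a receptor of lysophosphatidic acid, was at 1.96, 1.83, 2.20 and 1.66 on the *Hottip* gRNA arrays, at 0.58, 0.61 and 0.79 on the *Hoxa13* gRNA arrays and at 0.38, 0.30 and 0.18 on the control arrays. All *Hottip* gRNA arrays were above all others, as for 2.43% of all tested probes. The difference from the control was 1.63 (SE 0.31, limma adjusted p = 0.0396), and that from the *Hoxa13* gRNA group was 1.25 (limma adjusted p = 0.145). The call held in 2 of the 23 other settings, with the difference between 1.22 and 1.71 and the adjusted p between 0.0156 and 0.271. Like *Enpp2*, *Lpar6* was well above background on all arrays.

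The other 5 lists had 0 genes called in either comparison with *Hottip* gRNAs, beside 0.718% and 0.381% of all tested probes. Of the BMP pathway 17 of 22 genes could be tested, with 9 higher than the control, a median difference of 0.05, and 3 with an unadjusted p under 0.05, beside 8.05% of all tested probes. The 3 include *Bmpr1b*, which was well above background on 3 arrays, the fewest that pass the filter, with no control array among them. That count includes outlier spots, whose values were left out of the fit. *Smad6*, an inhibitor of BMP signalling, had the largest difference, at −0.14, −0.05 and 0.57 on 3 *Hottip* gRNA arrays and −1.79, −1.85 and −1.68 on the control arrays. Its difference of 1.90 (SE 0.38) missed the threshold (limma adjusted p = 0.0663) and passed it in 2 of the 23 other settings, and it was 1.83 from the *Hoxa13* gRNA group (limma adjusted p = 0.0979). Among the other Eph receptors and the ephrins 17 of 19 could be tested, with 10 higher, a median of 0.11, and *Efnb3*, an ephrin, furthest from the control at −1.34 (limma adjusted p = 0.533).

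None of the 3 other SALL genes, which are paralogues of *Sall1*, was called. Their differences were −1.96 (*Sall2*), −1.31 (*Sall3*, dim on all but 1 of the *Hottip* gRNA arrays) and −0.33 (*Sall4*), the first 2 with an unadjusted p under 0.05 (8.05% of all tested probes). *Sall2* was at −1.86, −1.66, −0.93 and −1.60 on the *Hottip* gRNA arrays, at 0.80, 1.05 and −0.20 on the *Hoxa13* gRNA arrays and at 0.40, 0.38 and 0.55 on the control arrays. The *Hottip* gRNA arrays were below all 6 others, as for 2.68% of all tested probes. The difference from the control was −1.96 (SE 0.40, limma adjusted p = 0.0566), and it was called in 6 of the 23 other settings. Of the retinoic acid pathway 10 of 15 genes could be tested (5 higher, median −0.02), with *Crabp2*, a retinoic acid binding protein, furthest from the control at 1.51 (limma adjusted p = 0.647), which became 0.67 without control array 3. Of the digit and joint cartilage list 6 of 14 could be tested (5 higher, median 0.27), and 7 were well above background on no array. *Runx2*, a regulator of bone formation and 1 of the 5 higher, had the largest difference there, 1.19 from 2 *Hottip* gRNA arrays at 0.42 and −5.01. The second is the floor value of *Hottip* gRNA array 4, so the difference cannot be taken as a measured size. Its sign rested on the array at 0.42 (limma adjusted p = 0.999). *Runx2* was well above background on 1 *Hoxa13* gRNA array and on no control array, so its place in the test rested on the *Hottip* gRNA arrays. There it passed only with outlier spots counted, whose values were left out of the fit.

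**Figure D5:**
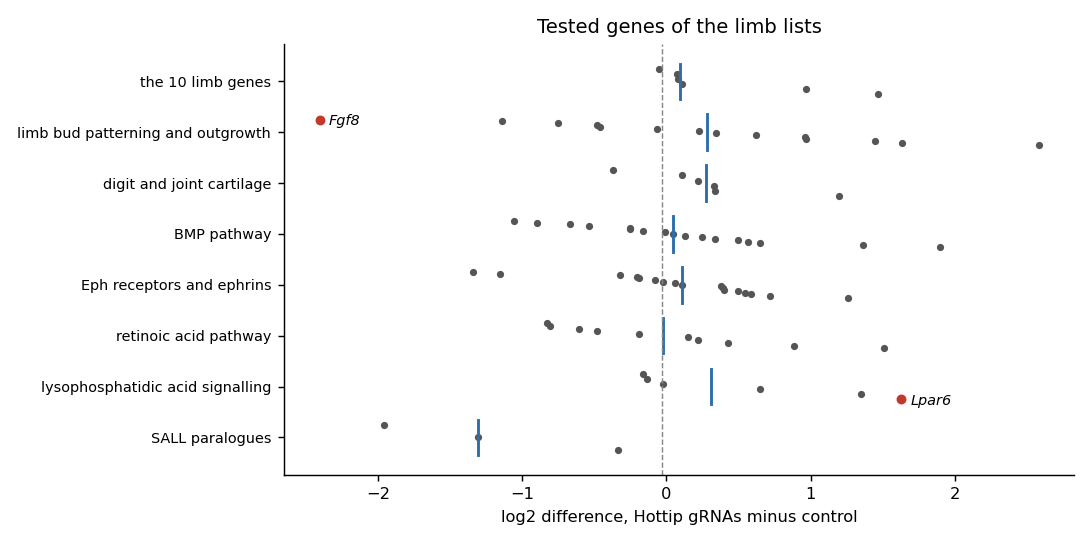
log2 difference, *Hottip* gRNAs minus control (x axis), of each tested gene of the 10 and of the 7 pathway lists (y axis), with the median of each list as a blue bar and that of all tested probes as a dashed line. Red points are the genes called at an adjusted p under 0.05 from limma, *Fgf8* (lower) and *Lpar6* (higher).

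The cell type labelled, embryonic stem cells, was checked against marker genes. The 7 ES cell markers (*Pou5f1*, *Nanog*, *Sox2*, *Esrrb*, *Zfp42*, *Tdgf1* and *Utf1*) were well above background on all 10 arrays. Their summed signal, relative to the 75th percentile, was 123 to 274 on the *Hottip* gRNA arrays, 273 to 467 on the *Hoxa13* gRNA arrays and 106 to 332 on the control arrays. Of 9 limb mesenchyme markers, 1 to 3 were well above background on a *Hottip* gRNA array, 1 to 2 on a *Hoxa13* gRNA array and 2 to 4 on a control array, and *Tbx5*, *Hoxd12* and *Lhx9* were on none. Their summed signal was 0.902 to 1.40, 0.635 to 0.987 and 0.947 to 3.67. Of 7 fibroblast markers 1 to 2, 2 to 4 and 2 were, with *Postn*, *Pdgfrb* and *Lum* on none, and sums of 0.849 to 7.11, 0.960 to 1.78 and 0.579 to 2.67. In each list the ranges of the *Hottip* gRNA and control arrays overlapped. After *Hoxa13* gRNAs 7 of 7 ES cell markers had a mean above the control (median difference 1.05). Of these, 3 had an unadjusted p under 0.05 (11% of all tested probes did). After *Hottip* gRNAs 0 of 7 were higher than after *Hoxa13* gRNAs (median −0.78). None was called by limma in either comparison. Bright probes in general, those with a mean level over 3, had a median difference of 0.63 between *Hoxa13* gRNAs and control and of −0.52 between *Hottip* gRNAs and *Hoxa13* gRNAs. The part of these shifts in the values of *Epha4*, *Enpp2* and *Sall1* was not tested.

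The promoters of the genes were searched for AATAAA, the core of the motif that HOX13 proteins bind in DNA. RefSeq windows of 300 bases, from 250 before to 50 after a start (GRCm38.p6), were at hand for 6 of the 10 genes, *Epha3*, *Epha4*, *Epha7*, *Aldh1a2*, *Hand2* and *Sall1*. These genes have 9 windows. On either strand the letters were in 2 of the 9, 1 of *Epha4* and 1 of *Hand2*, beside 19.6% of the 32817 windows of all genes. Both are shown as they read along the gene, with the match, on the opposite strand, in capitals, since *Epha4* is the gene of the 6 furthest from the control and *Hand2* was at the floor throughout.
Epha4: ctaacttaagcaTTTATTccactgggatag
Hand2: acatcaaaaagtTTTATTgcggagagcgcg

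The *Epha4* stretch is chr1:77515065-77515094 on the minus strand, just past the annotated start, and the *Hand2* stretch is chr8:57320874-57320903 on the plus strand, with the match 97 bases upstream of the start. The longer CAATAAA was in the *Hand2* window and in 4.6% of all windows. These matches describe the sequence and were not measured as binding.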

How the data were processed

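RNA of 10 cultures of mouse ES cells was measured on one-colour (Cy3) Agilent arrays. The authors deposited the Feature Extraction 11.5.1.1 output of each array, whose processed signal is a background-subtracted intensity, also detrended over the array surface on 8 of the 10. A table of log2 values from the authors was deposited too, for which the submitters' processing notes name limma. Its columns rank the spots as median signal minus local background does and have medians of 7.186 to 7.196, and it served as an alternative.

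Spots with an outlier mark (0.312% to 7.28% of an array) and control spots were dropped from the levels. The count of arrays well above background, used for the filter, kept spots with an outlier mark. Some dim genes, such as *Dlx6*, *Runx2* and *Bmpr1b*, thus passed only through spots whose values were not fitted. Levels are the log2 of the processed intensity relative to the 75th percentile of all non-control spots of the array, and the spots of a probe were averaged. Saturated spots were kept. A probe was named through its accession in the RefSeq genes of GRCm38.p6 (27656 probes of 20972 genes). Since the files name mm9, gene coordinates were not used with the measurements. The probe with the highest mean over the 10 arrays stands for a gene.

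All 10 arrays were fitted together in R 4.3.3 with lmFit and eBayes of limma 3.58.1, with p-values adjusted by Benjamini-Hochberg over 22844 probes, those with a signal well above background on 3 or more arrays, of which 22835 had a value in both the *Hottip* gRNA and control groups. Calls were made at an adjusted p under 0.05. Exact permutation tests were two-sided over the 2 groups compared. Where every array of the dimmer group was not well above background, the fold is a lower limit, setting the brighter mean against, per array, the higher of the probe's own level and the lowest level well above background. The procedure was tested on simulated data. The number of arrays limits the precision.

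Genes named from the lists were those called in either comparison with *Hottip* gRNAs and the one with the largest difference from the control among those well above background on at least 3 arrays; of the marker lists, those well above background on all arrays or on none. The members and the lists were chosen with earlier results of these data known. The alternatives were normexp (offset 50, on the median spot signal since the files hold no mean), quantile normalization, the authors' table, dropping the filter or asking for all 10 arrays, the slide or the replicate number as a block, the slide with all 3 groups alone, the 2 groups alone, the mean of a gene's probes, the arrays not corrected for a trend left out and each array left out. Keeping outlier spots, taking the percentile without them, and all alternatives for the pathway genes were chosen after seeing the data. The guides against the *Hoxa13* promoter are not reported here.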

Additional observations from a re-analysis of the deposited data

Results flagged for a closer look

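At the brightest *Epha7* probe (A_52_P504787), 1 of the 4 *Hottip* gRNA arrays stood apart from the other 3. Array 1 was at −0.12 and the others between −1.20 and −1.10, so its distance to the nearest array was 0.903 of the whole range, more than Dixon's 95% limit for a group of 4 arrays. Of the 13 probes of *Hoxa13* and the 10 genes with a value on all 4 arrays, this was the one that passed, and chance passes about 1 in 20. In the authors' log2 values array 1 was also the highest of the group (10.44, against 9.26 to 9.70). Without it, the difference of *Epha7* from the control was −0.19 in place of 0.07, neither called by limma.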

How the results depend on the processing

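None of the genes in the test (3 to 6 of the 10, and all 10 with no filter) was called in any comparison under the 23 other settings. *Hoxa13* remained called in 22 of 23 in both comparisons with *Hottip* gRNAs, and under the filter on all 10 arrays it was outside the test. Its difference from the control ran from 7.30 to 9.12. Of 504 other values of the differences of *Hoxa13* and the 10 genes, 39 had the opposite sign, all of uncalled differences. The size of dim genes is limited by the floor. No difference can be read for *Epha3* and *Hand2*, and their values here and below show only how the settings treat it. Normexp and the authors' values turned *Epha3* (−0.12 and −0.25 against the control, −0.82 and −0.46 against the *Hoxa13* gRNA group), *Hand2* (−0.10 and −0.18, −0.69 and −0.17) and *Aldh1a2* (−0.039 and −0.23 against the control), and normexp turned *Bmp7* (0.15). Quantile normalization gave −0.10 for *Hand2* against the control and 0.0269 for *Epha4* against the *Hoxa13* gRNA group, and the percentile without outlier spots gave 0.0101 for the latter. With the slide as a block, or on the slide with all 3 groups alone, both of which rest on *Hoxa13* gRNA array 3, the differences from the *Hoxa13* gRNA group were 0.54 (*Bmp7*), −0.19 (*Hand2*) and 0.0517 (*Gdf5*), and that of *Enpp2* could not be estimated. Without the arrays not corrected for a trend, *Aldh1a2* was at −0.13 and *Sall1* at −0.51 against the control.

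When single arrays were left out, the differences from the control ranged from −0.35 to 0.25 (*Bmp7*), −0.0010 to 1.19 (*Epha3*), −0.19 to 0.31 (*Epha7*), −0.26 to 1.15 (*Hand2*), −0.51 to 0.72 (*Sall1*) and −1.52 to 3.90 (*Runx2*, negative without *Hottip* gRNA array 3). Those from the *Hoxa13* gRNA group ranged from −0.58 to 0.0901 (*Bmp7*), −0.0008 to 0.77 (*Epha3*), −0.32 to 0.12 (*Epha4*) and −1.16 to 0.0814 (*Sall1*). Without *Hottip* gRNA array 3, *Runx2* was read in the *Hottip* gRNA group from a floor value alone. The median over all 10 genes, 4 of them dim, was 0.45 against the control (0.23 to 1.00, the highest without control array 3), beside 0.46 over all probes well above background on no array and 0.09 over the 6 tested genes.

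The number of all probes called moved more. Against the control, 164 probes were called after *Hottip* gRNAs, 109 in the authors' values, 107 with outlier spots kept, 36 without the arrays not corrected for a trend, 5 under the filter on all 10 arrays, and 56 (without control array 2) to 240 with each array left out, with 100 each without *Hottip* gRNA array 3 or 4 or control array 1. Between the 2 pools 87 were called, 48 on the slide with all 3 groups, 34 without the arrays not corrected, 33 with the percentile without outlier spots, 31 with no filter, 0 under the filter on all 10 arrays (limma) and 11 (without *Hoxa13* gRNA array 2) to 116 with each left out, under 1.5 times from 87 without control array 1 or 3 alone. For *Hoxa13* gRNAs against the control 40 were called, 68 with the slide as a block, 22 with the 2 groups alone, 17 with outlier spots kept, 16 with no filter, 8 with the percentile without outlier spots, 0 under the filter on all 10 arrays (limma) and 3 (without *Hoxa13* gRNA array 3 or control array 2) to 130 (without control array 3) with each left out, under 1.5 times from 40 without *Hottip* gRNA array 2 or 3 alone. The causes were not tested.

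Arrays of the same replicate number did not deviate together (correlations between *Hottip* gRNA and control arrays of −0.31, −0.12 and −0.20), so the numbers were not taken as pairs. Arrays of different numbers did so in part, up to 0.42 for *Hottip* gRNA array 3 with control array 1. With the replicate number as a block, 14, 8 and 2 probes were called in the 3 comparisons, and *Sall1* was at −0.0612 against the control.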
